A study of Mus musculus with 9 samples.

Results

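The genes described here encode the membrane and membrane skeleton of the red cell: Sptb, Slc4a1, Epb42, Ank1, Kel, Ermap, Cldn13 and Rhd. They were chosen by symbol from the count tables of a mouse bone marrow (BM) single-cell study, and these 8 genes are 8 of 15265 in all tables together. Epb42 was found under its older symbol, Epb4.2, which RefSeq gives as a synonym, in 8 of 9 tables, and the other members were found in all 9. A symbol that a table did not list was counted as 0, which concerned only Epb42 in 1 library. The study profiled unselected BM cells from C57BL/6 mice aged 2 to 3 weeks by Drop-seq, a method that captures single cells in droplets with barcoded beads. There were 4 libraries of NG2-cre/Pot1a fl/fl BM and 5 libraries of NG2-cre/Pot1a wt/wt BM, so both groups carry the NG2-cre transgene and only the first carries the floxed Pot1a alleles. Pot1a encodes a protein that binds and protects telomeres. The Cre is driven by the promoter of NG2, a proteoglycan of mesenchymal cells and pericytes, so blood cells are not the cells in which the gene is meant to be deleted. Which mouse gave which library is not labelled, and the study gives fewer mice than libraries per group. The p-values therefore measure the spread between libraries and can be too small.

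A red cell keeps its shape because a meshwork of spectrin lies under the membrane and is tied to it at anchor points. At the main anchor, ankyrin joins spectrin to the anion exchanger band 3, with protein 4.2 stabilising the link, and blood group proteins sit in the same complexes. Inherited defects in these proteins cause spherocytosis and other haemolytic anaemias. In the marrow the genes are switched on while erythroblasts divide, fill with haemoglobin and condense, and they are widely used as markers of the red cell lineage.

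Total counts per library ran from 119459 to 465277, with 100 barcodes in each, and 899 of 900 barcodes were kept. Pot1a wt/wt 2 and 3 shared 19 barcodes, and no other of the 36 pairs of libraries shared any; of these 19 barcodes, 9 lay among the erythroid-like cells in either library. Cells were clustered without the members and without 24 other red cell membrane genes. This gave 247 erythroid-like cells, 149 in a cluster called intermediate (Hba-a1, Hemgn, Hba-a2 and Mgst3 among its leading genes) and 98 in a cluster called early (leading markers Car1, Fam132a, Mt2 and Vamp5). No separate globin-rich cluster formed, since the globin genes led the intermediate one. The early name rests on 4 markers from a list written with the leading genes of such a cluster already known.

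On GRCm38 (GENCODE) the members lie apart, with Sptb on chromosome 12, Slc4a1 on 11, Epb42 on 2, Ank1 on 8, Kel on 6, Cldn13 on 5, and Ermap and Rhd both on 4. Promoters of 5 of the 8 members were matched in RefSeq (GRCm38.p6). They are of interest because the members share a cell type, and because erythroid genes are commonly bound by the factors GATA1 and KLF1. A GATA motif (AGATAA) and a KLF motif (CACCC) were searched on both strands from 250 bases before to 50 after the start site. These letters do not overlap one another, and they occurred in 11.2% and 57.5% of 32851 such windows of all genes. The AGATAA letters stood in 3 of the 5 windows, those of Kel, Rhd and Epb42. The 120 bases before the start site are printed here for the 4 members whose motifs lie there, with the motif letters of either strand in capitals. The windows are chr6:41704326-41704445 (minus strand) for Kel, chr4:134864416-134864535 (plus strand) for Rhd, chr4:119189996-119190115 (minus strand) for Ermap and chr12:76710548-76710667 (minus strand) for Sptb.
Kel: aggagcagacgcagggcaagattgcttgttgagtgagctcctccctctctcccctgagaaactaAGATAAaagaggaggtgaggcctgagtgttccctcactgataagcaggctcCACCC
Rhd: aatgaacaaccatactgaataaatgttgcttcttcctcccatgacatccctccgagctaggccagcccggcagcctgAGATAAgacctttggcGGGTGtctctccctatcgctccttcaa
Ermap: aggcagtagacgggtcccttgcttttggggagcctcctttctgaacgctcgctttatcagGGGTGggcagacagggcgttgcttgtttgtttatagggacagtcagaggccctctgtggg
Sptb: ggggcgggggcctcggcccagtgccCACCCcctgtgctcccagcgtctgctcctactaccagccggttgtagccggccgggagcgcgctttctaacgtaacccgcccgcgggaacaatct
In Kel, AGATAA began 56 bases before the start site and CACCC 5 bases before it. In Rhd, AGATAA began 43 bases before the start site and CACCC, read on the other strand, 27 bases before it, with another CACCC at base 15 after the start. Of the letters searched, Ermap held only CACCC, on the other strand, 60 bases before the start, and Sptb only CACCC, 95 bases before it. Other forms of the GATA motif were not searched. A match of letters is not a measured binding site.

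The members were first placed among the cell classes. Of 2456 counts of the 8 genes, 88.4% lay in erythroid-like cells, which held 32.7% of the counts of all genes. By member the share ran from 80.6% of 108 counts for Sptb to 92.5% of 710 counts for Ermap. A median of 4 of the 8 genes was detected in an intermediate cell and 2 in an early cell. The median was 0 in B-lineage-like, granulocyte-like and monocyte/macrophage-like cells, and 1 in the 29 mesenchymal-like cells. At least 3 members were detected in 66.0% of the erythroid-like cells, against 2.18% of 229 B-lineage-like and 0.760% of 263 granulocyte-like cells. Because the classes are built from the same cells, these levels are a description with no test.

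Slc4a1 encodes band 3, the chloride-bicarbonate exchanger that anchors the skeleton. It was detected in 62.3% of erythroid-like cells (exact binomial interval 56.0 to 68.4%, counting error only), against 10.9% of B-lineage-like and 9.89% of granulocyte-like cells, whose median counts per cell were 2118 and 2275 beside 2705 in erythroid-like cells. After each cell was thinned to 1000 counts, the shares were 44.8%, 4.54% and 4.30%. Granulocytes should lack this transcript, so their share serves as a reference level here. The source of the counts outside erythroid-like cells was not tested. Among mesenchymal-like cells, which had a median of 977 counts, Slc4a1 was detected in 9 of 29 cells, 31.0% (15.3 to 50.8%). After thinning it was detected in 20.0% of the 14 cells deep enough. All 9 were among the 18 such cells of Pot1a wt/wt, against 0 of 11 in Pot1a fl/fl. The 18 came from Pot1a wt/wt 2, 4 and 5 only, with 2, 6 and 10 cells. Single cells are not replicates, so these numbers do not compare the genotypes. The 10 such cells of Pot1a wt/wt 5 held 11 of the 16 counts. Their Slc4a1 was at 1366 CPM, or 1681 CPM with globins left out of the total. Ermap, a protein of the red cell surface related to the butyrophilins, was detected in 77.3% of erythroid-like cells, against 8.30% of B-lineage-like and 3.80% of granulocyte-like cells.

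Between the erythroid stages the members differed in how early they were detected. Levels are given as CPM, the counts of a gene summed per library and scaled to a common library total. They are means over libraries with at least 10 cells of the stage, 8 for the intermediate and 5 for the early stage. The former were 3 Pot1a fl/fl and 5 Pot1a wt/wt libraries, the latter 1 and 4, so the stage means come from unlike sets of libraries. Slc4a1 reached 1571 ± 750 CPM in intermediate cells, against 135 ± 133 CPM in early cells (SD). Ermap reached 898 ± 194 CPM in intermediate cells, against 606 ± 222 CPM in early cells. Thus 43.2% of all Ermap counts lay in early cells, but only 6.37% of all Slc4a1 counts. Rhd, the mouse homologue of the Rh blood group protein, was at 492 ± 128 CPM in intermediate and 177 ± 50 CPM in early cells. Cldn13, a claudin that humans lack, was at 462 ± 120 CPM in intermediate and 173 ± 75 CPM in early cells. Kel, the metalloprotease that carries the Kell blood group, was at 227 ± 95 and 31.6 ± 33.0 CPM in the same order. The 3 genes of the skeleton and its anchor were sparse. Sptb (erythroid beta-spectrin) was at 167 ± 74 CPM in intermediate and 50.3 ± 42.6 CPM in early cells, Epb42 (protein 4.2) at 147 ± 100 and 48.6 ± 48.5 CPM, and Ank1 (ankyrin-1) at 126 ± 71 and 56.6 ± 14.2 CPM. Within libraries, with any number of cells, the intermediate CPM exceeded the early CPM in 9 of 9 for Slc4a1, Kel, Ermap and Rhd. It did so in 8 of 9 libraries for Ank1 and Cldn13, and in 7 of 9 for Sptb and Epb42. Early cells were deeper, with a median of 4013 counts against 2381 in intermediate cells. In counts per cell Ermap had the reverse order, at 2.38 ± 0.97 in intermediate and 2.74 ± 1.94 in early cells (SD). The other members were higher on average in intermediate cells by this measure too, Slc4a1 at 4.00 ± 2.22 against 0.38 ± 0.24.

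**Figure D1:**
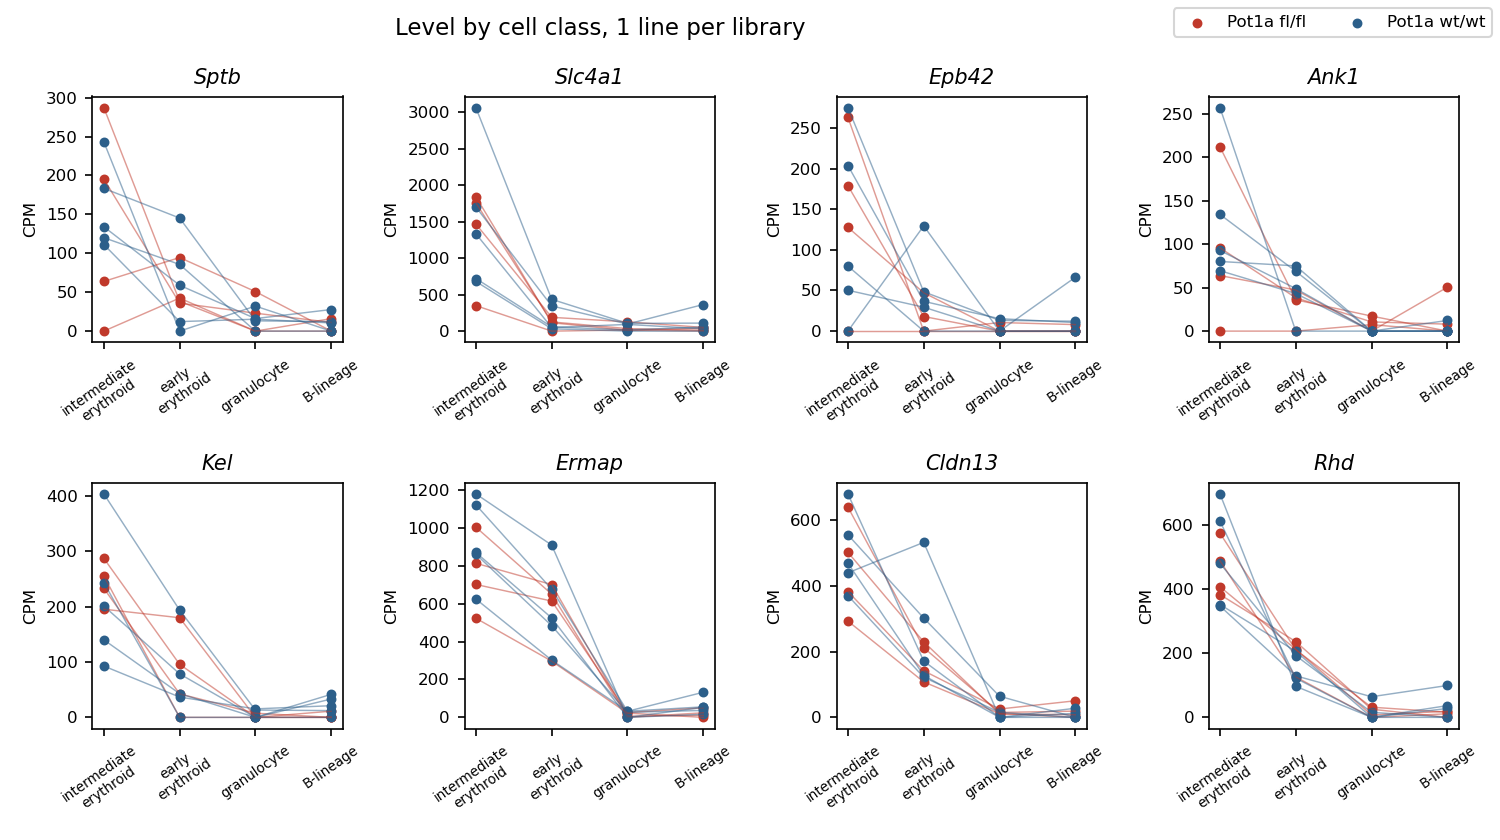
Level of each member (CPM, linear axis) in intermediate and early erythroid-like, granulocyte-like and B-lineage-like cells, with 1 line per library, Pot1a fl/fl in red and Pot1a wt/wt in blue; libraries with fewer than 10 cells of a class are drawn too. Slc4a1 averaged 1571 CPM in intermediate and 135 CPM in early cells, and Ermap 898 CPM in intermediate and 606 CPM in early cells.

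The share of a cell's counts taken by globins was used as a finer measure of how far an erythroid-like cell had progressed, a choice made after the clusters had been seen. There were 75 cells under 1%, 59 from 1 to 5%, 62 from 5 to 20% and 51 at 20% or more. Slc4a1 was higher in each bin than in the one before. It was at 44.3, 448, 1398 and 2956 CPM, and the counting intervals of neighbouring bins did not overlap. Ermap was at 665, 885, 751 and 985 CPM, a far flatter course, although the interval of the last bin (801 to 1200) lay above that of the first (588 to 749). Cldn13 was at 140, 453, 493 and 388 CPM, so it was lowest in cells with little globin and its 3 further intervals overlapped. Rhd was at 158, 379, 462 and 647 CPM, Sptb at 44.3, 90.6, 160 and 259 CPM, and Kel at 49.2, 176, 136 and 448 CPM. Globins are part of the total behind these CPM. With them left out, Ermap was at 667, 909, 844 and 1466 CPM, and Slc4a1 at 44.5, 460, 1570 and 4397 CPM. Median counts per cell were lower in each further bin (4613, 2740, 2332 and 1733). The last bin drew 17 of its 51 cells from Pot1a wt/wt 1.

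The same contrast was therefore made within each library, between erythroid-like cells at or above 5% globin and those below. Slc4a1 was at 1691 ± 688 CPM in the globin-rich cells, against 180 ± 76 CPM in the others (SD over 9 libraries), a ratio of 9.40, and was higher in 9 of 9 libraries. Epb42 and Ank1, the partners of band 3 at the anchor, had ratios of 4.50 and 4.47 and were higher in 8 of 9 libraries each. Kel had a ratio of 3.04 and Rhd of 2.63, both higher in 9 of 9 libraries. Sptb had a ratio of 2.95 but was higher in only 6 of 9 libraries, with values down to 0. Ermap had the lowest ratio, 1.24, at 797 ± 341 CPM in the globin-rich cells, against 643 ± 188 CPM in the others, and was higher in 7 of 9 libraries. A larger globin share lowers the CPM of every other gene in a cell, so these ratios understate the difference as a share of counts apart from globin. Counts per cell are another measure, as total counts per cell were lower in the globin-rich bins. In the 4 pooled bins Ermap was at 3.60, 2.81, 1.97 and 1.94 counts per cell, against 0.24, 1.42, 3.66 and 5.82 for Slc4a1. Rhd was at 0.85, 1.20, 1.21 and 1.27, and Ermap alone was lower in the last bin than in the first.

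**Figure D2:**
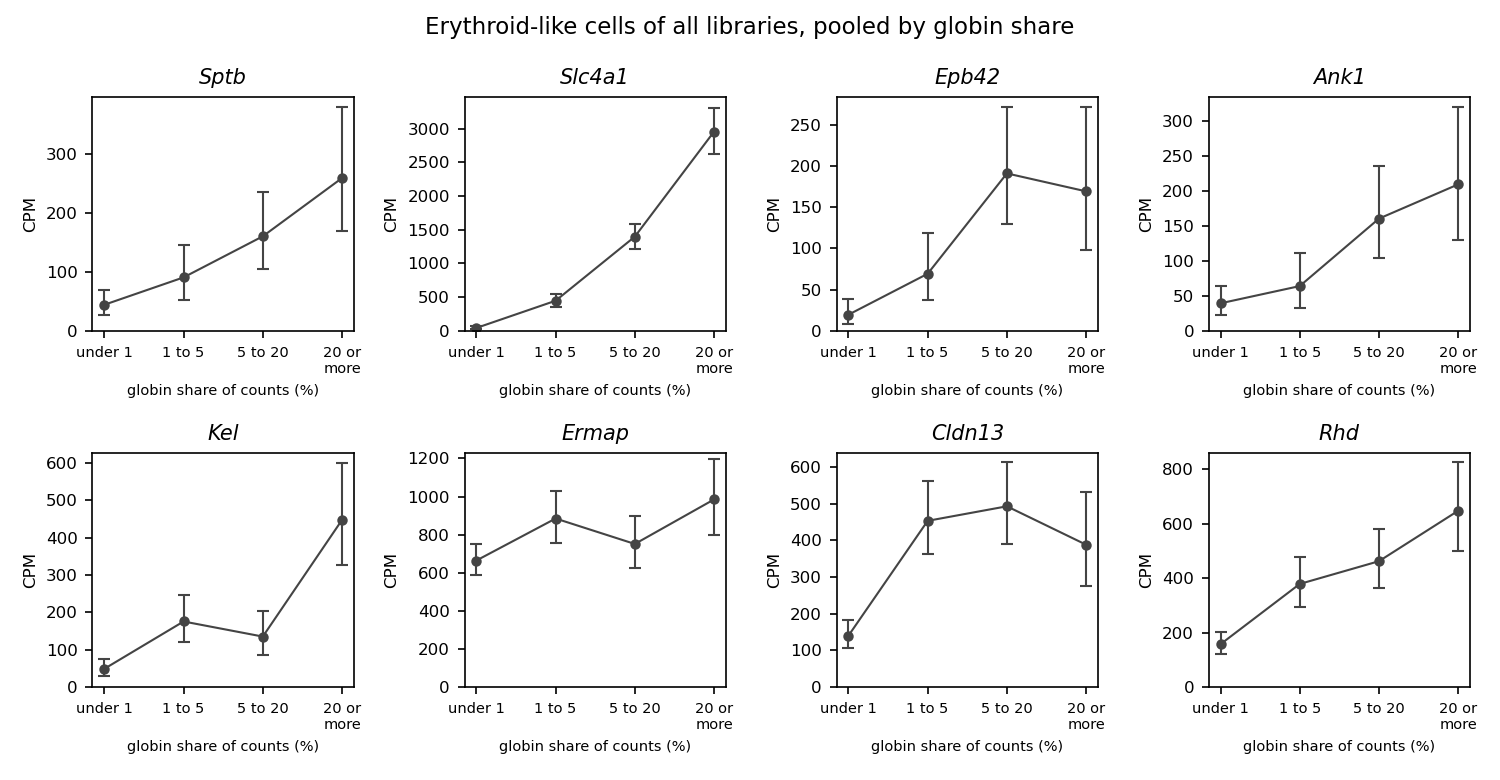
Level of each member (CPM, linear axis from 0) in 247 erythroid-like cells of all libraries, pooled by the globin share of their counts into 75, 59, 62 and 51 cells; bars are 95% Poisson intervals, which cover counting error only. Slc4a1 climbs from bin to bin to 2956 CPM, while Ermap stays between 665 and 985 CPM. The total behind the CPM includes globins, which lowers the values of the globin-rich bins.

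Some other genes followed the members closely. Over 34 sums of cells by class and library, the log2 level of the summed members was correlated with that of 3931 genes, which is a description across classes that share libraries and depth. Among the 10 genes most like the members were Hemgn (Pearson's r 0.956), Prdx2, Nxpe2, Isg20, Car2, Atpif1, Alad, Klf1 and Bsg (0.894). All of these but Bsg are in the marker lists that named the erythroid-like clusters. Their high correlation over the same classes is therefore no independent result. Among the genes named, Alad is an enzyme of haem synthesis, Prdx2 a peroxidase abundant in red cells, Car2 a carbonic anhydrase, and Klf1 an erythroid transcription factor. Other red cell membrane genes with many counts were also higher on average in intermediate than in early cells. Aqp1, a water channel, was at 551 ± 146 CPM in intermediate and 225 ± 87 CPM in early cells. Cd47, which marks cells as self and is found on most cell types, was at 1063 ± 135 and 593 ± 161 CPM, with 41.2% of its counts in erythroid-like cells. Sptb had 80.6% of its 108 counts in erythroid-like cells, against 3.18% of 283 counts for Sptbn1, the beta-spectrin of other tissues, and 9.42% of 223 counts for Add3, an adducin of other tissues.

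The genotypes were then compared in whole BM, in counts summed over all kept cells of a library. In this sum fewer erythroid cells and less RNA per cell cannot be told apart. All 8 members were lower in Pot1a fl/fl BM by their fitted log2 fold change, with a median of -0.83, while the median of all 4559 genes tested was -0.002 and 50.3% of them were below 0. No member passed an adjusted p of 0.05 (edgeR quasi-likelihood test, Benjamini-Hochberg over all genes tested), a threshold that 0.0439% of genes passed, both of them higher in Pot1a fl/fl. At an unadjusted p under 0.05, 3 of 8 members were lower (Ermap, Cldn13 and Rhd), against 3.16% of all genes tested. For 2 of 8 members (Ermap and Rhd) every Pot1a fl/fl library was below every Pot1a wt/wt library, which held for 1.07% of genes tested.

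Ermap was at 198, 85.4, 226 and 206 CPM in Pot1a fl/fl 1 to 4, against 250, 483, 452, 285 and 230 CPM in Pot1a wt/wt 1 to 5. The groups did not overlap, but Pot1a fl/fl 3 and Pot1a wt/wt 5 were nearly level, and Pot1a wt/wt 2 and 3, the libraries that share barcodes, were the highest. The log2 fold change was -0.90 ± 0.27 (SE, edgeR, adjusted p = 0.293). Without Pot1a wt/wt 2 and 3 it was -0.55.

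Rhd was at 83.8, 49.8, 117 and 112 CPM in Pot1a fl/fl 1 to 4, against 175, 140, 140, 128 and 153 CPM in Pot1a wt/wt 1 to 5. Pot1a fl/fl 3 and 4 came closest to the lowest Pot1a wt/wt library, and no value crossed over. The log2 fold change was -0.69 ± 0.27 (SE, edgeR, adjusted p = 0.477). Cldn13 was at 55.9, 67.6, 109 and 91.1 CPM in Pot1a fl/fl 1 to 4, against 143, 166, 146, 92.1 and 188 CPM in Pot1a wt/wt 1 to 5. Here only Pot1a fl/fl 3 overlapped with the Pot1a wt/wt range, through the low Pot1a wt/wt 4. The log2 fold change was -0.86 ± 0.29 (SE, edgeR, adjusted p = 0.384).

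Slc4a1 had the widest spread. It was at 264, 35.6, 293 and 258 CPM in Pot1a fl/fl 1 to 4, against 771, 130.5, 168, 276 and 621 CPM in Pot1a wt/wt 1 to 5. The groups overlapped: 3 Pot1a fl/fl libraries lay among the Pot1a wt/wt values, and the Pot1a wt/wt mean was carried by libraries 1 and 5. The log2 fold change was -0.89 ± 0.78 (SE, edgeR, adjusted p = 0.868). It was -0.40 without Pot1a wt/wt 1, -0.53 without Pot1a fl/fl 2 and -1.43 without Pot1a wt/wt 2 and 3. Kel was at 51.6, 21.3, 33.5 and 44.3 CPM in Pot1a fl/fl 1 to 4, against 115, 35.9, 73.2, 38.6 and 62.8 CPM in Pot1a wt/wt 1 to 5, and the groups overlapped. Its log2 fold change of -0.67 ± 0.38 (SE, edgeR) was -0.31 without Pot1a wt/wt 1.

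The skeleton and anchor genes rested on few counts, 44, 28 and 30 in Pot1a fl/fl and 64, 54 and 57 in Pot1a wt/wt for Sptb, Epb42 and Ank1. Sptb was at 43.0, 3.56, 41.9 and 46.9 CPM in Pot1a fl/fl 1 to 4, against 59.6, 45.7, 54.9, 26.7 and 55.8 CPM in Pot1a wt/wt 1 to 5. Pot1a fl/fl 2, with 1 count of Sptb, was far below the rest. Its log2 fold change of -0.44 ± 0.42 was -0.09 without that library. Epb42 ran from 0 to 33.9 CPM in Pot1a fl/fl and from 13.05 to 75.5 CPM in Pot1a wt/wt, with a log2 fold change of -0.86 ± 0.58, and Ank1 from 3.56 to 38.7 CPM and from 27.9 to 59.6 CPM in the same order, with -0.80 ± 0.44 (SE, edgeR). Without Pot1a fl/fl 2, the Ank1 value was -0.48 and the Epb42 value -0.48, as Pot1a fl/fl 2 had 1 count of Ank1 and none of Epb42. The Ank1 value was -1.39 without Pot1a fl/fl 1, and the Epb42 value -1.42 without Pot1a wt/wt 2 and 3.

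**Figure D3:**
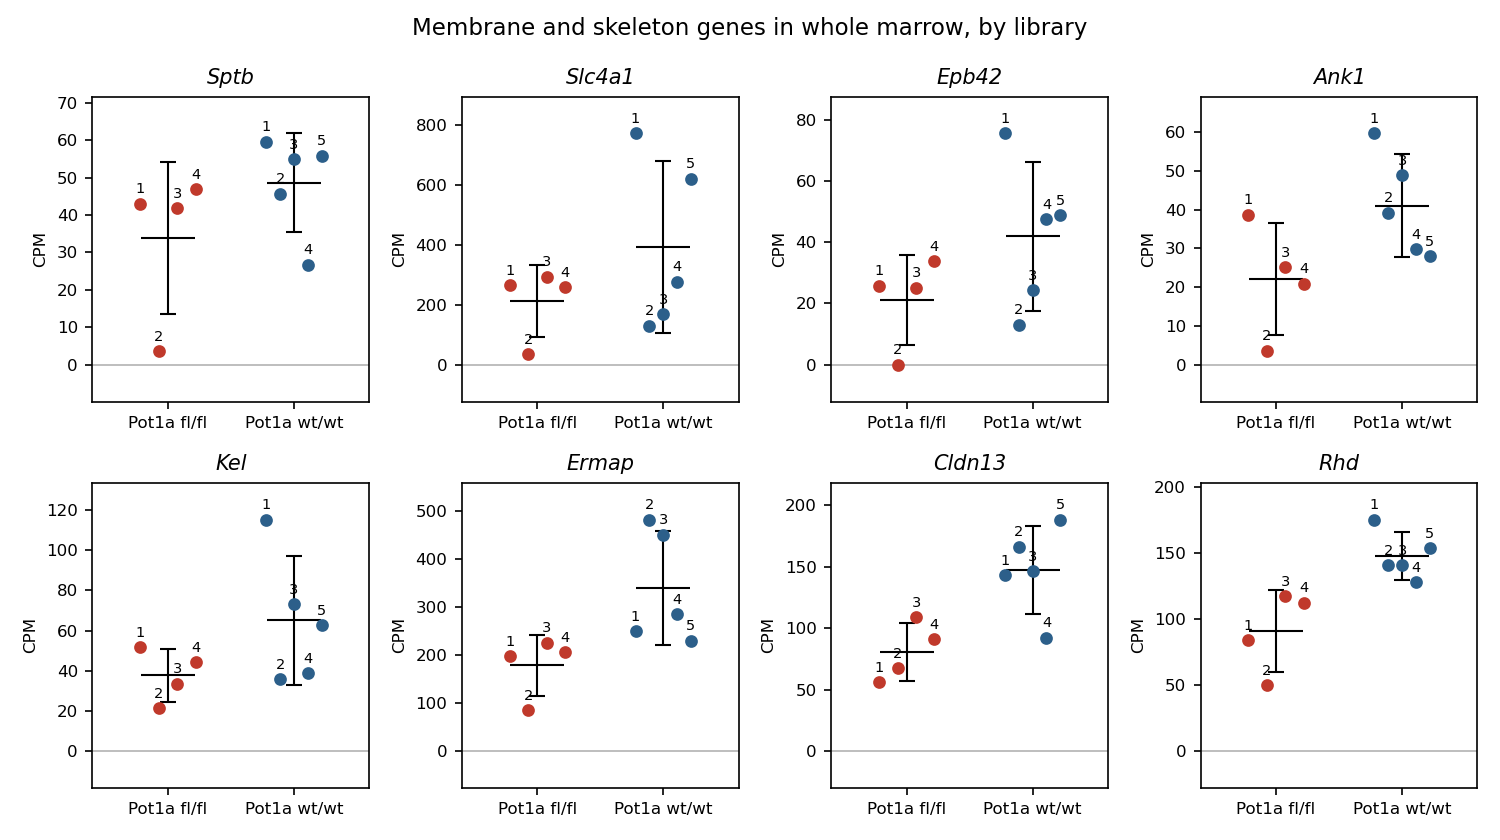
Level of each member in whole BM (CPM, linear axis), 1 numbered point per library, Pot1a fl/fl (n = 4) left of Pot1a wt/wt (n = 5); black marks are the mean and SD. Groups are separate for Ermap and Rhd and overlap for the other members, and Pot1a fl/fl 2 is lowest for all members but Cldn13.

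Other lists chosen for the red cell lay mostly on the same side in whole BM, none with a gene past the threshold. Of 24 other membrane genes, 16 were tested, 13 were below 0 and 3 above, with a median log2 fold change of -0.57, and Aqp1 was at 107 ± 49.8 CPM in Pot1a fl/fl and 159 ± 39.6 CPM in Pot1a wt/wt. All 4 globin genes tested were below 0, with a median of -0.76. Of 9 erythroid transcription factors tested, 7 were below 0, with a median of -0.23, and Klf1 was at 97.3 ± 46.8 CPM in Pot1a fl/fl and 177 ± 24 CPM in Pot1a wt/wt. Of 4 non-erythroid relatives tested, 3 were above 0, with a median of 0.25.

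The number of erythroid-like cells differed between the libraries in the same direction. They made up 24, 14, 27 and 20% of cells in Pot1a fl/fl 1 to 4, and 25 to 38% in Pot1a wt/wt. The means were 21.2 ± 5.6% in Pot1a fl/fl and 32.5 ± 5.3% in Pot1a wt/wt (SD, n = 4 and 5), a difference of -11.2 percentage points (two-sided exact permutation test, p = 0.0317, 126 splits). With Pot1a wt/wt 2 and 3 taken as 1 library it was -9.93 points (exact p = 0.0571), and leaving out any single library other than Pot1a fl/fl 3 or Pot1a wt/wt 5 also put the exact p at 0.0536 to 0.0571. Counting only intermediate cells, the difference was -6.44 points (exact p = 0.0238). A share of 100 barcodes says nothing of the absolute number of cells.

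Member levels were next compared among erythroid-like cells alone. All 9 libraries had at least 10 such cells. Here the median log2 fold change of the 6 members that passed the filter on low counts was -0.09, 4 of them were below 0, and 51.1% of the 1783 genes tested were below 0. No member passed the threshold, and no gene did (0% of 1783, 56 at an unadjusted p under 0.05, and 0 by DESeq2). Ermap was at 760, 393, 652 and 808 CPM in Pot1a fl/fl 1 to 4, against 758, 1004, 842, 663 and 481 CPM in Pot1a wt/wt 1 to 5. Rhd was at 316, 294, 299 and 372 CPM in Pot1a fl/fl 1 to 4, against 532, 293, 260, 317 and 250 CPM in Pot1a wt/wt 1 to 5. The genotypes, which did not overlap for these 2 genes in whole BM, overlapped for both here. The log2 fold changes were -0.16 ± 0.25 for Ermap and -0.02 ± 0.31 for Rhd (SE, edgeR, adjusted p = 0.9996 for both).

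The other tested members were no more separate. Cldn13 had a log2 fold change of -0.20 ± 0.34, Sptb of 0.07 ± 0.46, Kel of 0.21 ± 0.50 and Slc4a1 of -0.43 ± 0.88 (SE, edgeR). A value that misses the threshold does not show equal levels. The sign was not fixed for Sptb, Kel, Slc4a1, Cldn13 and Rhd, each of which crossed 0 under at least 1 alternative, while Ermap stayed below 0 under all 21 that were run. Slc4a1 went furthest: it was at 983, 147, 733 and 883 CPM in Pot1a fl/fl 1 to 4, against 2341, 258, 303, 559 and 1097 CPM in Pot1a wt/wt 1 to 5, and without Pot1a wt/wt 1 its log2 fold change was 0.51. The 2 sparse members under the filter were Epb42, with 26 counts in Pot1a fl/fl and 43 in Pot1a wt/wt, and Ank1, with 23 and 52.

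Several measures of the erythroid-like cells are given here beside these levels. Globins took 3.58% of the erythroid-like counts in Pot1a fl/fl 2 and 2.96 and 2.32% in Pot1a wt/wt 2 and 3, where Slc4a1 was lowest, and 19.3 and 15.0% in Pot1a wt/wt 1 and 5, where it was highest. Ermap did not keep this order. It was at 393 CPM in Pot1a fl/fl 2, and at 1004 and 842 CPM in Pot1a wt/wt 2 and 3. In Pot1a wt/wt 1 and 5 Ermap was at 758 and 481 CPM. Pot1a fl/fl 2 also had the fewest erythroid-like cells, 14, with 8 intermediate ones. Of the markers of other cell types, the granulocyte list (16 of 17 detected, Ly6g at 0) summed to between 7709 and 48185 CPM in the erythroid-like cells of Pot1a fl/fl and between 1193 and 20324 CPM in those of Pot1a wt/wt. Its part in the member levels was not tested. The B-lineage list (16 of 16 detected) ran from 128 to 679 CPM in Pot1a fl/fl and from 177 to 828 CPM in Pot1a wt/wt. The monocyte/macrophage list (9 of 11 detected, Csf1r and Cx3cr1 at 0) ran from 24.5 to 163 CPM in Pot1a fl/fl and from 27.9 to 173 CPM in Pot1a wt/wt. The mesenchymal list (5 of 7 detected, Lepr and Bglap at 0) ran from 0 to 597 CPM in Pot1a fl/fl and from 26.6 to 231 CPM in Pot1a wt/wt, and the T/NK list (2 of 5 detected, Cd3e, Cd3d and Trbc2 at 0) from 10.6 to 49.1 CPM and from 0 to 26.6 CPM in the same order. The part of these lists was not tested either.

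**Figure D4:**
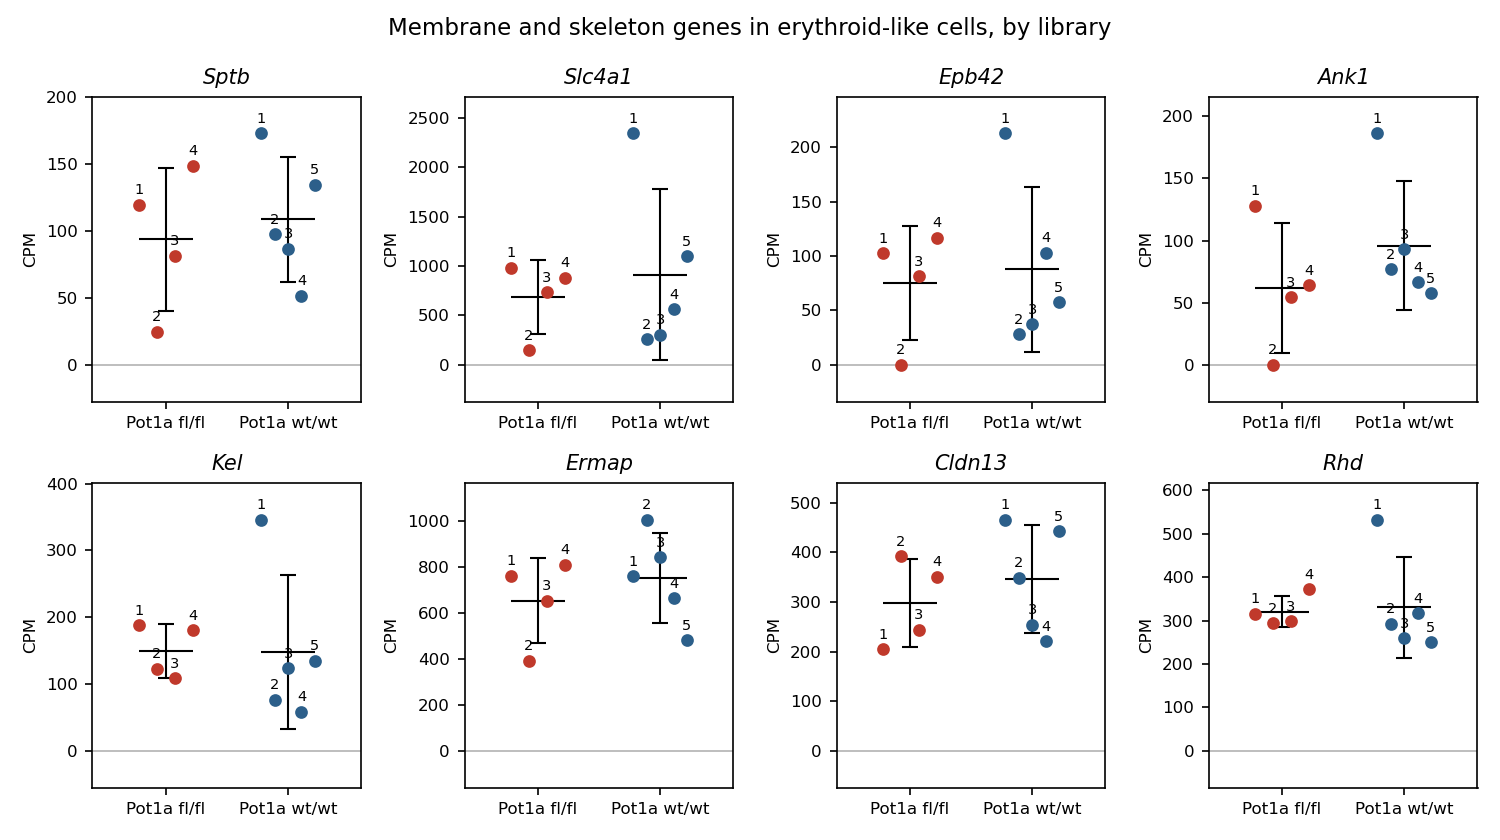
Level of each member among erythroid-like cells (CPM, linear axis), 1 numbered point per library, Pot1a fl/fl (n = 4) left of Pot1a wt/wt (n = 5); black marks are the mean and SD. The genotypes overlap for all 8 members, and Pot1a wt/wt 1 is the highest library for 7 of them, Ermap being the exception.

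Which member held most counts in the erythroid-like cells differed between libraries of both genotypes. Slc4a1 made up 35.1, 10.7, 32.5 and 30.2% of the member counts in Pot1a fl/fl 1 to 4, against 46.7, 11.8, 15.2, 27.4 and 41.3% in Pot1a wt/wt 1 to 5. Ermap made up 27.1, 28.6, 28.9 and 27.6% in Pot1a fl/fl 1 to 4, a narrow range, against 15.1, 46.0, 42.1, 32.5 and 18.1% in Pot1a wt/wt 1 to 5. The Pot1a fl/fl range of Ermap lay inside that of Pot1a wt/wt, and for Slc4a1 only Pot1a fl/fl 2 was below it. Counts of the 8 members per erythroid-like cell were 13.7, 4, 3.07 and 13.8 in Pot1a fl/fl 1 to 4, against 13, 8.94, 8.50, 7.91 and 5.52 in Pot1a wt/wt 1 to 5. The groups overlapped, and Pot1a fl/fl 3, the library with the lowest total count, was lowest.

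Within single stages the picture was similar. In intermediate cells 3 Pot1a fl/fl libraries (1, 3 and 4) and all 5 Pot1a wt/wt libraries had at least 10 cells. Of the 7 members tested, 3 were below 0 and 4 above, with a median of 0.12, beside 49.9% of 1047 genes below 0, and no gene passed the threshold (0% of 1047, 23 at an unadjusted p under 0.05, and 0 by DESeq2). Slc4a1 was at 1758, 1468 and 1842 CPM in Pot1a fl/fl 1, 3 and 4, against 3062, 680, 721, 1334 and 1702 CPM in Pot1a wt/wt 1 to 5, all 3 inside the Pot1a wt/wt range. Its log2 fold change was 0.12 ± 0.60. The others ran from -0.35 ± 0.36 for Cldn13 to 0.59 ± 0.65 for Epb42 (SE, edgeR). The 8 intermediate cells of Pot1a fl/fl 2, not in the fit, held 349 CPM of Slc4a1, 524 CPM of Ermap and 640 CPM of Cldn13.

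Early cells were too few for the test in Pot1a fl/fl, where only library 3 held 10 or more. With the minimum lowered to 5 cells all 9 libraries entered and 3 members passed the filter on low counts. Ermap was at 701, 297, 614 and 651 CPM in the early cells of Pot1a fl/fl 1 to 4, against 484, 910, 677, 525 and 302 CPM in those of Pot1a wt/wt 1 to 5, and the groups overlapped. The log2 fold changes were -0.03 ± 0.31 for Ermap, -0.18 ± 0.49 for Cldn13 and 0.25 ± 0.42 for Rhd (SE, edgeR), and none of them, nor any of the 1098 genes tested, passed the threshold (0%). The difference between the genotype effects in the intermediate and early stages could not be fitted at 10 cells. At 5 cells, over 9 libraries and 1343 genes, the 5 members tested had differences on the log2 scale between -0.35 ± 0.73 (Kel) and 0.21 ± 0.54 (Slc4a1) with adjusted p of at least 0.983 (edgeR).

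**Figure D5:**
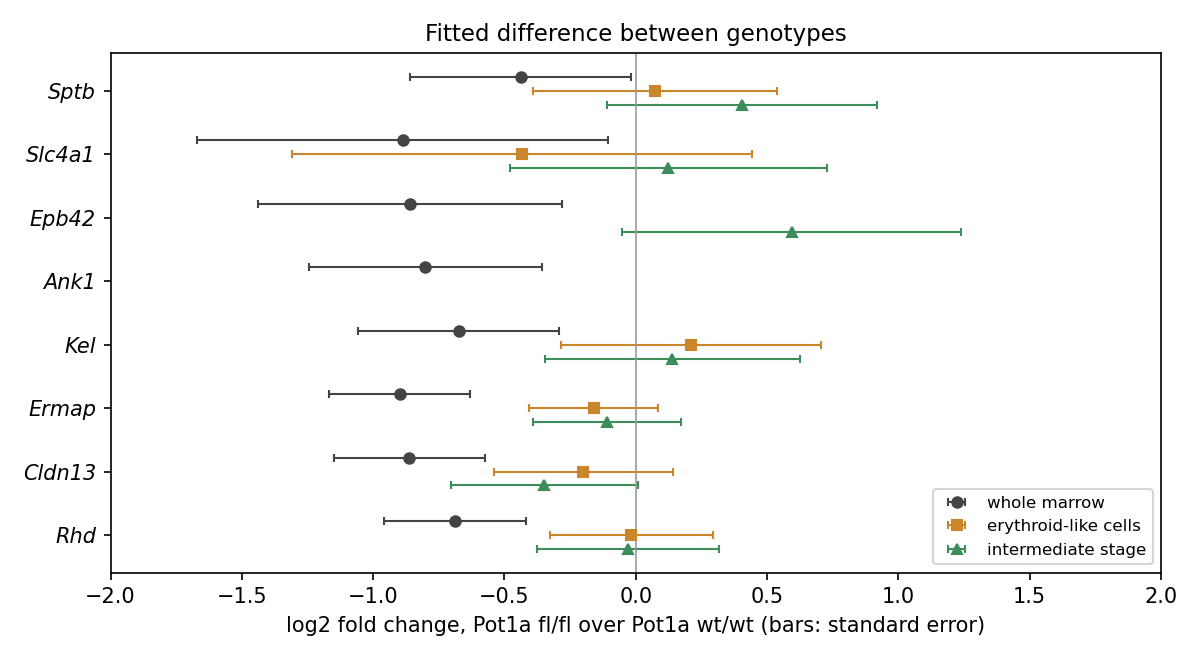
Fitted log2 fold change of each member, Pot1a fl/fl over Pot1a wt/wt, with standard errors, in whole BM (circles), erythroid-like cells (squares) and the intermediate stage (triangles); a missing symbol means that the gene was under the filter on low counts. All 8 circles lie below 0, at -0.90 to -0.44, while squares and triangles lie on both sides of 0.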

How the data were processed

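Unselected BM cells of 9 libraries (4 Pot1a fl/fl, 5 Pot1a wt/wt) had been profiled by Drop-seq. Per the labels and methods, the authors used STAR with mouse build mm10 and the Drop-seq software, which gave tables of whole-number counts per gene and barcode, analysed here as deposited. The methods call the values read counts and do not state whether reads of 1 molecule were merged. If they were not, the counting intervals are too narrow. Versions and the selection of 100 barcodes in each library are not stated. If barcodes were picked by their totals, RNA-rich cells would be over-represented. The tables hold whole numbers with no scaling seen in the values. Counting that ignores strand could share reads between Sptb and the overlapping Plekhg3 (29 counts).

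Barcodes with at least 200 counts and at most 25% mitochondrial counts were kept, and no doublet caller was run. In Seurat 5.3.0 (R 4.3.3), log values of counts scaled to 10000 entered anchor integration of the 9 libraries (2000 variable genes, 20 components, k.filter 50 and k.weight 30) and Louvain clustering at resolution 1. Clusters were called "like" the class with most markers in their top 50 genes by fold, given at least 3 markers and detection in 20% of cells or more. Sums per library, from at least 10 cells, were fitted by the quasi-likelihood method of edgeR 4.0.16 with TMM scaling and filterByExpr, and p-values were adjusted after Benjamini-Hochberg (threshold 0.05). DESeq2 1.42.0 was an alternative. CPM are counts over the library's or class's total. Likeness used log2(CPM + 10) for genes with at least 100 counts. Thinning to 1000 counts was computed as an exact expectation. The test script was tested on simulated data.

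Named were all members, of each gene list the 4 genes with most counts and any past the threshold, and the 10 genes most like the members. Some genes that this rule names are not reported here. The members, markers and gene lists were chosen with earlier results of these data known. Alternatives were the scaling, low-count filter, tool, clustering, class assignment, barcode filter, single libraries, and Pot1a wt/wt 2 and 3 as 1 library. The alternatives without Pot1a wt/wt 2 and 3 together and without the shallowest library of each group together, and the globin bins, were chosen after seeing the data.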

Additional observations from a re-analysis of the deposited data

Results flagged for a closer look

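Each group of 4 or 5 libraries was searched for a library far from the others (Dixon's gap over range at 95%), in whole BM and in erythroid-like cells. Of 34 groups tested 5 held such a library, where chance alone gives about 1 in 20 if groups are independent. These groups are not independent, as correlated genes share the same libraries and erythroid-like cells are part of whole BM. No excess over chance can therefore be read from the count. Pot1a fl/fl 2 was low in whole BM for Sptb, at 3.56 CPM where the other Pot1a fl/fl libraries ran from 41.9 to 46.9, and for Slc4a1, at 35.6 CPM where they ran from 258 to 293. Pot1a wt/wt 1 was high among erythroid-like cells for Ank1, at 186 CPM where the other Pot1a wt/wt libraries ran from 57.7 to 92.8, for Kel, at 346 CPM where they ran from 58.9 to 135, and for Rhd, at 532 CPM where they ran from 250.2 to 317. Of the erythroid-like cells, 1 of 14 in Pot1a fl/fl 2 had a globin share of 20% or more, against 17 of 29 in Pot1a wt/wt 1, the highest number of the 9 libraries. The number was also small in Pot1a wt/wt 3, at 1 of 38, and in Pot1a wt/wt 2, at 3 of 35. The part of the globin share in these values was not tested.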

How the results depend on the processing

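No member passed the threshold in whole BM, erythroid-like cells or the intermediate stage under any alternative run. In whole BM all 8 members stayed below 0 wherever they passed the filter (adjusted p for Ermap 0.0648 by DESeq2, and up to 0.9999 over its alternatives). Over all genes in whole BM, 8 were higher and 4 lower by DESeq2, and 20 and 6 with no filter on low counts, against 2 and 0. The erythroid-like share was -9.93 points with Pot1a wt/wt 2 and 3 as 1 library, -13.1 to -8.80 points with single libraries left out, -6.44 without the early stage (exact p = 0.0238), -13.0 with each cell assigned by its own markers (exact p = 0.0397) and -14.6 with no integration (exact p = 0.0476).

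Among erythroid-like cells some signs turned. Sptb was -0.089 by DESeq2, -0.061 with no filter, -0.016 with Pot1a wt/wt 2 and 3 as 1 library and -0.21 without both, where Kel was -0.23. Rhd was 0.053 with each cell assigned by its own markers. Slc4a1 was 0.12 without the early stage, which is the intermediate-stage fit itself and also leaves out Pot1a fl/fl 2. In the intermediate stage Slc4a1 was -0.084 with that pair as 1 library, -0.16 at a minimum of 5 cells and -0.40 without the pair, where Kel was -0.19. With single libraries left out, values among erythroid-like cells ran from -0.21 to 0.40 for Sptb, -0.69 to 0.51 for Slc4a1, -0.064 to 0.86 for Kel, -0.38 to 0.014 for Cldn13 and -0.15 to 0.28 for Rhd, and in the intermediate stage from -0.0031 to 0.57 for Sptb, -0.095 to 0.67 for Slc4a1, -0.071 to 0.62 for Kel and -0.18 to 0.20 for Rhd. The cause of these turns was not tested.

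Replicate numbers did not pair the libraries. After the group mean of each gene's log level was subtracted, same-numbered libraries correlated at -0.161 to 0.010. With the number as a replicate block 0 members passed the threshold, and among erythroid-like cells Sptb was -0.0061 and Slc4a1 0.025. Depth limits the sparse members: Epb42, Ank1 and Sptb had 82, 87 and 108 counts in all libraries together.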

Other observations

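Erythroid transcription factors differed in their course between the stages, given here as values with no test (CPM, SD, 8 libraries for the intermediate and 5 for the early stage). These sets of libraries are unlike, with 3 Pot1a fl/fl libraries for the intermediate and 1 for the early stage. Klf1 was at 517 ± 82 CPM in intermediate and 318 ± 44 CPM in early cells, and Lmo2 at 412 ± 131 and 311 ± 115 CPM, an order shared with all 8 membrane genes. Myb and Bcl11a, which are known for roles in erythroid progenitors and in globin switching, had the opposite order. Myb was at 35.4 ± 46.2 CPM in intermediate and 200.1 ± 54.1 CPM in early cells, and Bcl11a at 67.5 ± 40.4 and 206 ± 104 CPM.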
